A study of Rattus norvegicus with 20 samples.

Results

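Dusp1, Dusp5 and Dusp6 are dual-specificity phosphatases that inactivate MAP kinases, and their transcript levels are described here in cultured rat progenitors and in the cells derived from them. The set comprises 3 of the 4736 genes that have a probe set with a single gene symbol on the array, and 6 of the 7006 such probe sets. Every probe set annotated to these symbols was taken, 3 for Dusp1, 1 for Dusp5 and 2 for Dusp6, and no probe set with several symbols named a member. The genes were chosen from results of these data: Dusp1 was selected on its opposite movement with FBS and with RA/Fsk. Its values in those comparisons, and those of Dusp5 and Dusp6 chosen with it, are therefore given as a description without a test. The comparison of the progenitor groups was not used for the choice and is tested.

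Total RNA was measured on 20 Affymetrix rat arrays in 4 groups. The labels name high-density progenitors (HD, 6 arrays), low-density CCg progenitors (LD, 4 arrays), and LD cells given either FBS to obtain astrocytes (FBS, 6 arrays) or RA/Fsk to obtain neurons (RA/Fsk, 4 arrays). FBS is commonly fetal bovine serum, RA retinoic acid and Fsk forskolin, an activator of adenylyl cyclase. The meaning of CCg, the tissue and strain of origin, the doses and the times are not stated in the labels. LD, FBS and RA/Fsk share the CCg label and the low density, whereas HD differs from LD in density and in carrying no CCg label, which cannot be told apart. Arrays of a group with the same number in their titles were averaged and are called a culture below, giving 3 cultures each for HD and LD and 4 each for FBS and RA/Fsk. Nothing in the labels shows that different numbers are separate cultures or animals. The p-values then reflect only how these samples vary, and that variation may be technical.

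The deposited values are linear intensities per probe set. Array medians lay between 41 and 57.5, and trimmed means between 200.3 and 200.5. Correlations between arrays of a group were 0.9395 to 0.9794, and arrays 3 and 3r of FBS culture 3 differed more than any other pair of arrays of a culture. A difference is the change in mean log2(intensity + 4.99), and "FBS against LD" is FBS minus LD. Each is printed ± its standard error (SE), from a limma fit over all 4 groups. To pass, a probe set needed an adjusted p (Benjamini-Hochberg, over 8740 probe sets) under 0.05. A level of 1 probe set cannot be set against that of another, so levels are compared only between groups.

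MAP kinases are activated by phosphorylation of a threonine and a tyrosine in their activation loop, and dual-specificity phosphatases remove both phosphates. Dusp1 is an inducible nuclear enzyme that acts on JNK, p38 and ERK and is transcribed within minutes of stimulation by serum, stress, cAMP or glucocorticoids. Dusp5 is a nuclear phosphatase selective for ERK, and Dusp6 is its cytoplasmic counterpart, a feedback inhibitor of growth factor signalling that is itself induced by ERK activity.

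The sequences before the gene starts are shown because the agents given are known to act through factors with recognition motifs: CREB for cAMP, serum response factor for serum and retinoic acid receptors for RA. RefSeq sequences of assembly GRCr8 were available for all 3 genes, on the plus strand, 5′ to 3′. The 250 bases before each start were searched on both strands for TGACGTCA (the full cAMP response element), TGACG (its shorter form, which lies inside the full one), the CArG box bound by serum response factor, and a direct repeat of AGGTCA with 5 bases between the copies. Capitals mark the matches. The windows are chr10:17184603-17184852 for Dusp1 and chr1:262543524-262543773 for Dusp5. The Dusp6 sequence is shown for 148 bases only, chr7:35979354-35979501, up to the first of its annotated transcripts.
Dusp1: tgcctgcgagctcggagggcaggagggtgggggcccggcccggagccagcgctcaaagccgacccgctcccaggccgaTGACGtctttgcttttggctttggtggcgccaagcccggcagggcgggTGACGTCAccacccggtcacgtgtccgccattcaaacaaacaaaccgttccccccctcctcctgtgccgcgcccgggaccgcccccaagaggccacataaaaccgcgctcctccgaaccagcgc
Dusp5: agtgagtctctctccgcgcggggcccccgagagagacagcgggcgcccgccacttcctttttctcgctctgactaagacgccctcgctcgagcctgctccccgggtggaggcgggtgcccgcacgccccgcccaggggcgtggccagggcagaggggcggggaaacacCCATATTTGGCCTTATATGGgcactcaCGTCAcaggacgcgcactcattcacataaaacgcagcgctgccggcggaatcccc
Dusp6: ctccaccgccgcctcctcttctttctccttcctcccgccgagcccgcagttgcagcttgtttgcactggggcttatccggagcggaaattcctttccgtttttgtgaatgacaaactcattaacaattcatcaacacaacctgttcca

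The Dusp1 sequence holds TGACGTCA at 124 to 117 bases before the start and a further TGACG at 172 to 168. The Dusp5 sequence holds a pair of CArG boxes side by side, CCATATTTGG at 82 to 73 and CCTTATATGG at 72 to 63, and TGACG on the minus strand at 55 to 51. None of the 4 motifs was found in the 250 bases searched before the Dusp6 start, of which 148 are shown, and the direct repeat lies in none of the 3 windows. Among 33469 rat promoters of the same length, 1.59% hold TGACGTCA, 18.2% hold TGACG, 1.5% hold a CArG box and 0.00896% hold the direct repeat. A match is a match of letters and was not tested for binding.

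Dusp1 was highest in FBS in each of its 3 probe sets, which are numbered by mean intensity. In probe set 1 the 6 FBS arrays ran from 260.4 to 408.1 with a median of 397. The LD arrays read 28.5, 24.1, 70.2 and 152, those of culture 1 first, and the RA/Fsk arrays 24.7, 14.7, 17.9 and 20.6. The 6 HD arrays ran from 17.9 to 47.2 with a median of 29.7. Every FBS array was above every array of the other groups, and LD was the most uneven group, with culture 1 at the HD level and culture 4 several times brighter.

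In Dusp1 probe set 2 the FBS arrays ran from 125.2 to 204.9 with a median of 157. The LD arrays read 41.2, 38.7, 95.6 and 94.9, and the RA/Fsk arrays 32.5, 30.6, 39.4 and 36.2. HD arrays lay between 7.5 and 60.4 with a median of 39.4. As in probe set 1, FBS stood above all other arrays and LD culture 1 lay below LD cultures 3 and 4.

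In Dusp1 probe set 3 the FBS arrays ran from 163.9 to 373.2 with a median of 302. The LD arrays read 45, 11.6, 39.9 and 65.6, and the RA/Fsk arrays 13.7, 5.7, 12.1 and 4.8. HD arrays lay between 13.9 and 44.8 with a median of 35.6. FBS again stood above all other arrays, and the brightest RA/Fsk array was above the dimmest LD array.

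By cultures, RA/Fsk lay below LD in all 3 Dusp1 probe sets, but single arrays overlapped: the second array of LD culture 1 read 24.1, 38.7 and 11.6, below the brightest RA/Fsk array of each probe set. The order of group means was FBS, LD, HD, RA/Fsk in probe sets 1 and 3, and FBS, LD, RA/Fsk, HD in probe set 2. LD and HD cultures overlapped in all 3, HD and RA/Fsk cultures overlapped in probe set 2 only, and FBS cultures overlapped with none.

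The dimmer Dusp1 readings lay among those of control probe sets. The 15 control probe sets marked as antisense had a median of 32.9 and a 95th percentile of 160.3 in RA/Fsk, a median of 25.25 and a 95th percentile of 216.4 in LD, and a median of 21.15 and a 95th percentile of 128.4 in HD. All RA/Fsk, LD and HD readings of Dusp1 were below those 95th percentiles. In FBS the antisense median was 22.3 and the 95th percentile 126.1, and 17 of 18 Dusp1 readings were above the latter. No detection calls were used, so Dusp1 differences that involve RA/Fsk, LD or HD have no measured floor and their sizes depend on the constant added before the log. The same limit applies to any other gene with group means below these percentiles.

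Dusp5, measured by 1 probe set, had its highest readings in FBS and its lowest in HD and LD. The FBS arrays ran from 70.5 to 112.1 with a median of 91.7, and the HD arrays from 43.3 to 75.7 with a median of 62. The LD arrays read 46.5, 96.8, 80.4 and 49, and the RA/Fsk arrays 86.5, 85.7, 76.1 and 82.9. The mean order was FBS, RA/Fsk, LD, HD, and the cultures of each neighbouring pair in that order overlapped. The cultures of both treatments lay above all HD cultures, at 83.6 to 105.1 in FBS and 76.1 to 86.5 in RA/Fsk against 50.7 to 75.2 in HD. All of these readings were below the antisense 95th percentile of their group.

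Dusp6 was highest in RA/Fsk. In probe set 1 the RA/Fsk arrays read 1595.6, 1831.5, 1516.6 and 1831.2, and the LD arrays 830.6, 669.6, 1112.7 and 881.6. HD arrays ran from 745.8 to 1337.6 with a median of 1078. FBS arrays ran from 600.7 to 1539.9 with a median of 1256, so that FBS covered the whole span of LD and HD. RA/Fsk cultures, at 1517 to 1832, lay above all cultures of the other groups.

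In Dusp6 probe set 2 the RA/Fsk arrays read 988.8, 811, 896.9 and 1009.7, and the LD arrays 463.1, 384.4, 535.9 and 459.7. HD arrays ran from 471.4 to 879.1 with a median of 779, and FBS arrays from 433.8 to 1009.4 with a median of 831. The mean order was RA/Fsk, HD, FBS, LD in both probe sets. In this probe set RA/Fsk cultures overlapped with HD and with FBS but not with LD.

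**Figure D1:**
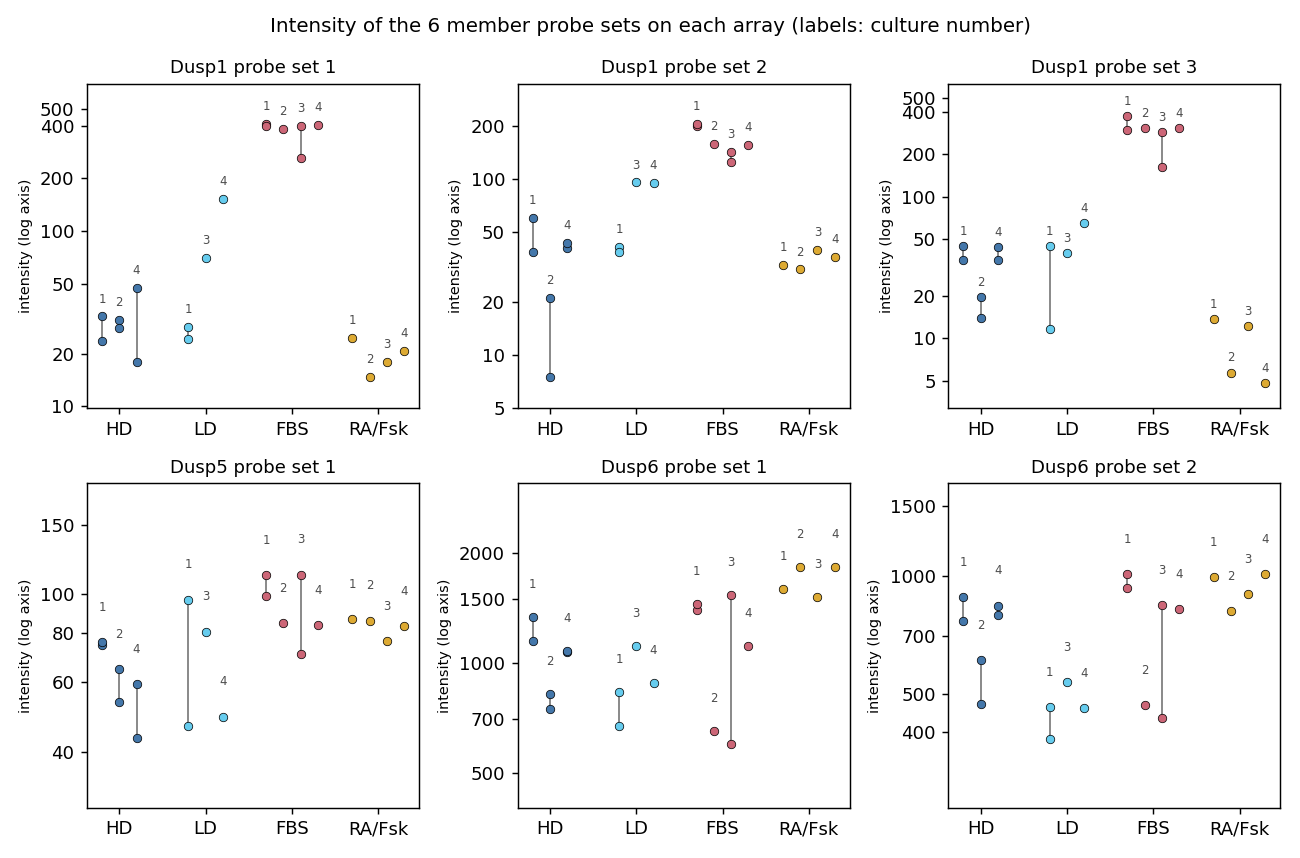
Intensity (log axis) of the 6 probe sets of Dusp1, Dusp5 and Dusp6 on each of the 20 arrays, by group; points joined by a line are arrays of the same culture and the digit is the culture number. FBS arrays lie above all others in Dusp1, RA/Fsk cultures lie above all others in Dusp6 probe set 1, and LD arrays spread from 24.1 to 152 in Dusp1 probe set 1.

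Part of the spread lay between arrays of a culture. Array 3r of FBS culture 3 was 2.56-fold brighter than array 3 in Dusp6 probe set 1 (1539.9 against 600.7) and 1.94-fold in probe set 2 (841.8 against 433.8), and dimmer in Dusp1 and Dusp5 by 1.13-fold to 1.75-fold. Over all probe sets that pair had a median difference of 0.433 log2, against 0.2031 to 0.3374 for the other 5 pairs. The arrays of LD culture 1 differed 3.88-fold in Dusp1 probe set 3 and 2.08-fold in Dusp5. The Dusp6 values of FBS culture 3 therefore depended on which array was read.

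No member probe set passed between high-density and low-density progenitors. In limma, 0 of 6 passed, where 0.858% of all probe sets did, 0.435% higher and 0.423% lower in HD. At an unadjusted p under 0.05, 3 of 6 members and 1209 of all 8740 probe sets were counted. Cultures of HD and LD overlapped in all 6, while 19.7% of all probe sets had no overlap. The 75 calls over all probe sets became 41, 23, 45 and 33 without HD culture 2, HD culture 4, LD culture 1 and LD culture 3.

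Dusp1, whose readings in HD and LD all lay below the antisense 95th percentile, differed by -1.08 ± 0.40 log2 in probe set 1 (HD minus LD, SE, n = 3 and 3 cultures, limma adjusted p = 0.238), by -1.11 ± 0.38 in probe set 2 (adjusted p = 0.203) and -0.36 ± 0.39 in probe set 3 (adjusted p = 0.722). Probe set 1 passed once LD culture 1 was left out, at -1.68 with an adjusted p of 0.0207, and stood at -0.51 without LD culture 4. Probe set 2 ranged from -1.49 without LD culture 1 to -0.62 without HD culture 2, and probe set 3 was at -0.01 without HD culture 2. The size of the HD to LD difference in Dusp1 thus rested on single cultures.

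Dusp5 differed between HD and LD by -0.08 ± 0.23 (limma adjusted p = 0.917), with a 95% interval from -0.56 to 0.41. Dusp6 differed by 0.17 ± 0.24 in probe set 1 (adjusted p = 0.791, interval -0.33 to 0.67) and by 0.59 ± 0.23 in probe set 2 (adjusted p = 0.261, interval 0.11 to 1.07). The intervals of all 3 probe sets are wide, so these data do not show equal levels.

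With FBS, Dusp1 was higher than in LD by 2.41 ± 0.37 log2 in probe set 1, 1.11 ± 0.36 in probe set 2 and 2.70 ± 0.36 in probe set 3 (SE, n = 4 and 3 cultures). No fold is given, since no LD reading of Dusp1 was above the antisense 95th percentile, and with an added constant of 32 probe set 3 was at 2.11. Without LD culture 1 the difference in probe set 2 was 0.72. Dusp5 was higher by 0.46 ± 0.21, and by 0.28 without LD culture 4. Dusp6 differed by 0.15 ± 0.22 in probe set 1 and 0.55 ± 0.21 in probe set 2, and the sign of probe set 1 turned without FBS culture 1, at -0.02. Cultures did not overlap in 4 of 6 member probe sets, the 3 of Dusp1 and that of Dusp5. Over all probe sets 35.4% did not overlap and 25.5% passed, 13.2% higher and 12.3% lower. Because FBS was used in the choice of the genes, nothing is read from this count.

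With RA/Fsk, Dusp1 was below LD by 1.57 log2 in probe set 1 (difference -1.57 ± 0.37), and the difference was -0.96 ± 0.36 in probe set 2 and -1.74 ± 0.36 in probe set 3 (SE, n = 4 and 3 cultures). The difference in probe set 1 was -2.17 without LD culture 1 and -1.002 without LD culture 4. Dusp6 was higher by 0.90 ± 0.22 in probe set 1 and 0.97 ± 0.21 in probe set 2, which is 1.87-fold and 1.95-fold, and leaving out single cultures gave 0.77 to 1.05 and 0.89 to 1.06. Dusp5 was higher by 0.34 ± 0.21 with overlapping cultures, and by 0.16 without LD culture 4. Cultures did not overlap in 5 of 6 member probe sets, where 15.5% of all probe sets had no overlap. Since RA/Fsk was used in the choice of the genes, nothing is read from this count. Over all probe sets 8.25% passed, 4.71% higher and 3.54% lower. The same LD cultures entered this comparison, the FBS comparison and that of HD.

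Set directly against each other, RA/Fsk and FBS differed in Dusp1 by -3.98 ± 0.35 in probe set 1, -2.07 ± 0.33 in probe set 2 and -4.44 ± 0.34 in probe set 3 (SE, n = 4 and 4 cultures). No RA/Fsk reading of Dusp1 was above the antisense 95th percentile, and with an added constant of 32 the differences were -2.99, -1.53 and -2.97. This comparison has no LD culture in it, and leaving out single cultures gave -4.07 to -3.88, -2.16 to -1.96 and -4.59 to -4.28. Dusp6 was higher in RA/Fsk by 0.75 ± 0.21 in probe set 1 and 0.42 ± 0.20 in probe set 2, the latter at 0.24 without FBS culture 2. Dusp5 differed by -0.12 ± 0.20, with a 95% interval from -0.54 to 0.30. Cultures did not overlap in the 3 Dusp1 probe sets and Dusp6 probe set 1, where 21.5% of all probe sets had no overlap. Both treatments entered the choice of the genes, so nothing is read from this count either. Over all probe sets 18.4% passed, 8.27% higher (723) and 10.1% lower (883), and with the arrays centred on their medians the split turned to 852 higher and 688 lower. Median centring moved the median of all probe sets from -0.09 to -0.18 for FBS against LD and from 0.06 to 0.16 here, and turned no Dusp1 or Dusp6 difference.

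**Figure D2:**
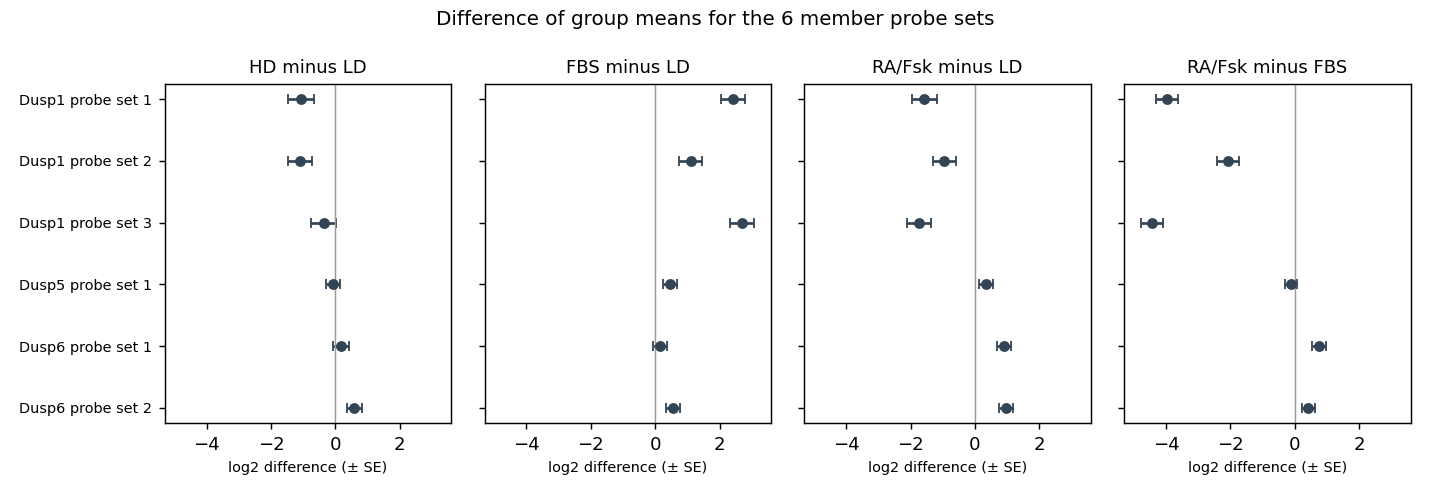
Log2 difference of group means with its SE (horizontal bars) for each member probe set, in 1 panel per comparison; the vertical line marks 0. Dusp1 lies to the right with FBS (1.11 to 2.70) and to the left with RA/Fsk (-1.74 to -0.96), and Dusp6 lies to the right with RA/Fsk (0.90 and 0.97).

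Over the 14 cultures the 3 Dusp1 probe sets correlated at r = 0.895 to 0.96 and the pair of Dusp6 probe sets at 0.876. Dusp1 and Dusp6 probe sets correlated at -0.47 to -0.118, and Dusp5 at 0.264 to 0.409 with Dusp1 and at 0.43 with Dusp6. These are descriptions: the points share their groups and arrays, and the group means fix much of each value. All 3 Dusp1 probe sets and Dusp6 probe set 2 carry an identifier suffix for probes that match more than 1 sequence of the array's design.

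The levels that followed Dusp1 most closely over the 14 cultures were those of Jun (r = 0.95), Vgll3 (0.947), Ppp2cb (0.942), Psme2 (0.94) and RT1-M3-1 (0.934), among 4091 probe sets whose brightest group mean reached the overall median intensity. Jun, a subunit of AP-1 that JNK phosphorylates, had group means of 319.3 in HD, 421.7 in LD, 893.1 in FBS and 288.1 in RA/Fsk. Vgll3, a TEAD cofactor, was at 2.79, 5.64, 114.4 and 1.72 in the same order. Vgll3 met the intensity limit through its FBS mean only. Since likeness to Dusp1 is what named these genes, their group order is a description.

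For Dusp5 the closest were both probe sets of Cmtm6 (0.93 and 0.869), Gde1 (0.894), Trpc1 (0.887) and Synj1 (0.874). Trpc1, a cation channel subunit, had means of 52.6 in HD, 57 in LD, 122.5 in FBS and 97.3 in RA/Fsk. For Dusp6 the closest were Elovl5 (0.844), Cipc (0.837), Ak4 (0.823), Prkce (0.82) and Edf1 (0.815). Elovl5, a fatty acid elongase, had means of 817.4 in HD, 795 in LD, 750 in FBS and 1786 in RA/Fsk. The genes closest to Dusp5 were higher in both treatments and those closest to Dusp6 had their highest mean in RA/Fsk, which follows from the way they were named.

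**Figure D3:**
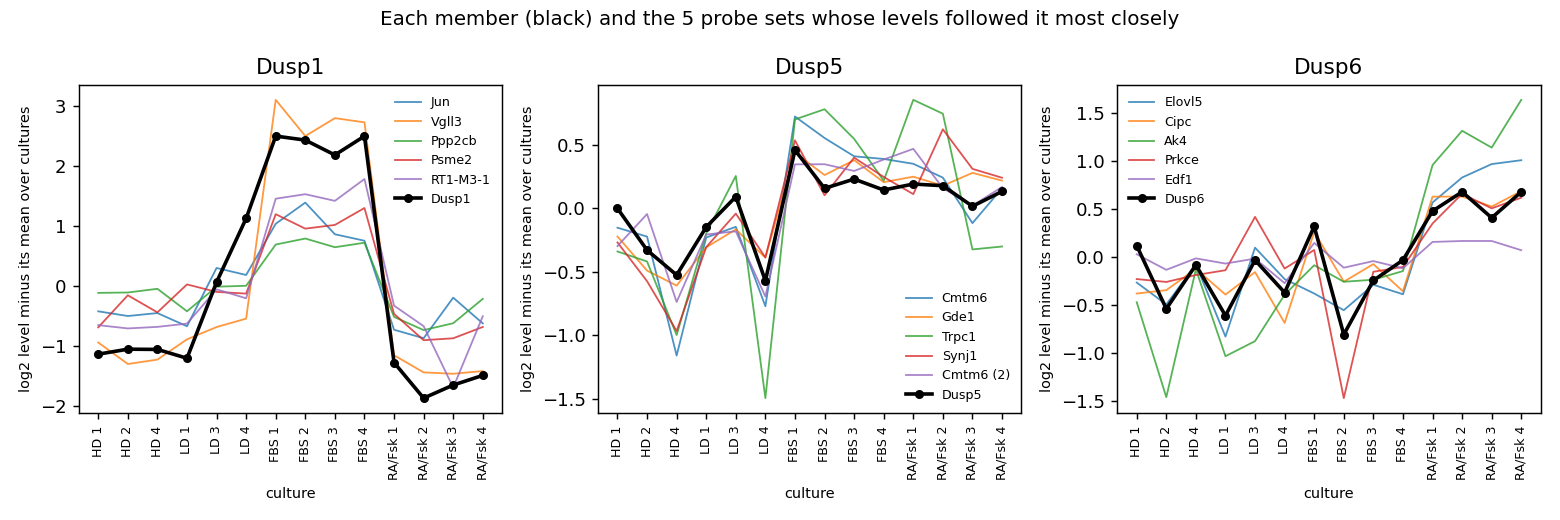
Log2 level minus its mean over the 14 cultures (vertical axis) by culture (horizontal axis) for Dusp1, Dusp5 and Dusp6 in black and the 5 probe sets closest to each in colour. The lines closest to Dusp1 peak in the 4 FBS cultures, and those closest to Dusp6 have their highest group mean in RA/Fsk, though Prkce in LD culture 3 and Edf1 in FBS culture 1 reach the RA/Fsk range.

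Of 23 listed relatives, other dual-specificity phosphatases and the tyrosine phosphatases that act on MAP kinases, 5 had a probe set with a single symbol: Dusp4, Dusp7, Ptpn5, Ptpn7 and Ptprr. None passed for HD against LD or for RA/Fsk against LD, at differences of -0.56 to 0.44 and -0.42 to 0.14, and 1 and 0 of 5 had an unadjusted p under 0.05 in limma. Ptpn5, a phosphatase of ERK and p38 in neurons, fell with FBS by 1.07 (difference -1.07 ± 0.31, limma adjusted p = 0.0165), from a mean of 82 to 36.4. Without LD culture 1 its adjusted p was 0.0977. Ptpn5 was higher in RA/Fsk than in FBS by 0.91 ± 0.29 (adjusted p = 0.0351), a call that ended without each of FBS cultures 1, 2 and 3 and RA/Fsk cultures 3 and 4 (adjusted p up to 0.106), and with the GAPDH ratio described below as a covariate (0.058). Dusp4, a nuclear relative of Dusp1, differed by 0.06 ± 0.20 with FBS (adjusted p = 0.863) and 0.11 ± 0.20 with RA/Fsk (adjusted p = 0.833). Dusp7, a cytoplasmic relative of Dusp6, differed by 0.27 ± 0.38 (adjusted p = 0.678) and 0.14 ± 0.38 (adjusted p = 0.891).

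Of 14 MAP kinases, 7 were measured. In limma 0 passed for HD against LD and for RA/Fsk against LD, where 0.858% and 8.25% of all probe sets did. The medians were 0.05 and 0.13 log2 against -0.08 and -0.05 over all probe sets, and 0 and 2 of the 7 had an unadjusted p under 0.05. With FBS 1 passed and in RA/Fsk against FBS 1 passed, where 25.5% and 18.4% of all probe sets did. Nothing is read from counts this small. Mapk8 (JNK1) fell with FBS, at a difference of -1.01 ± 0.36 (limma adjusted p = 0.0475), a call that ended without each of 11 cultures (all HD and FBS cultures, LD 3 and 4, RA/Fsk 2 and 4) with adjusted p up to 0.176, and in 6 of the other alternatives. Mapk14 (p38 alpha) was higher in RA/Fsk than in FBS by 0.73 ± 0.16 (adjusted p = 0.00335), in 1 of its 6 probe sets.

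Of 40 kinases and adaptors upstream of the MAP kinases, 18 were measured. With FBS 2 rose (Rap1b and Map2k1) and 3 fell (Map3k1, Map2k2 and Map2k5), and with RA/Fsk 0 rose and 1 fell (Map3k1). Of all probe sets 13.2% rose and 12.3% fell with FBS, and 4.71% rose and 3.54% fell with RA/Fsk. The list's counts are near those shares, and nothing is read from them. Map3k1, a kinase that activates the JNK branch, fell by 2.19 with FBS (difference -2.19 ± 0.25, limma adjusted p = 5.045e-06) and differed by -1.21 ± 0.25 with RA/Fsk (adjusted p = 0.00563), in all 3 of its probe sets. Rap1b, a small GTPase, rose by 0.71 ± 0.15 with FBS (adjusted p = 0.00183). Map2k1, a kinase of ERK, rose with FBS by 0.71 ± 0.22 (adjusted p = 0.026), but not without LD culture 1 or 4 or FBS culture 1 or 3 (adjusted p up to 0.0921), nor with median centring (0.131). Map2k2 fell with FBS, at -0.57 ± 0.16 (adjusted p = 0.0138, 0.0962 without LD culture 3, and 0.242 with the GAPDH ratio as a covariate). Map2k5, chosen after its value was seen, was at -0.52 ± 0.17 (adjusted p = 0.0356, and up to 0.15 without LD 3 or 4 or FBS 1, 3 or 4, and 0.167 with that covariate). In RA/Fsk against FBS 2 were higher (Map2k2 and Map3k1) and 2 lower (Map2k1 and Rap1b), where 8.27% and 10.1% of all probe sets were. Both higher calls ended with the GAPDH ratio as a covariate (adjusted p = 0.119 and 0.146) and that of Map2k1 with median centring (0.0908). In HD against LD 0 of 18 passed in limma, and 1 had an unadjusted p under 0.05.

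Of 20 inhibitors that, like Dusp6, restrain receptor or Ras signalling, 7 were measured. Errfi1, an inhibitor of the EGF receptor, rose with FBS from 37.9 to 232.1 (2.47 ± 0.26, limma adjusted p = 2.362e-06) and with RA/Fsk to 92.6 (1.19 ± 0.26, adjusted p = 0.00805, and 0.0805 in a fit of these groups alone), in 1 of its 3 probe sets. With FBS Pea15 also rose (0.67 ± 0.19, adjusted p = 0.014, 0.0989 without LD culture 1, and 0.0841 with median centring). Pebp1, the Raf kinase inhibitor protein, fell with FBS (-0.64 ± 0.11, adjusted p = 0.000256, and 0.114 after quantile normalization). Nf1, a Ras GTPase activator, fell in HD (-0.95 ± 0.20, adjusted p = 0.0323) and with FBS (-0.53 ± 0.19, adjusted p = 0.0494). In each comparison 1 of the 4 Nf1 probe sets passed, and the 4 ran from -0.95 to 0.02 and from -0.78 to 0.32. Both Nf1 calls ended without single cultures, for HD without HD 2 or 4 or any LD culture (adjusted p up to 0.181), and for FBS without any of 9 cultures (HD 2, LD 1, 3 and 4, FBS 2, 3 and 4, RA/Fsk 2 and 4; up to 0.161). With RA/Fsk, Nf1 passed only with the replicate number as a block (-0.46, adjusted p = 0.0498, and 0.177 without it). In RA/Fsk against FBS, Pebp1 was higher (0.68 ± 0.10, adjusted p = 0.000116) and Rasa1, Errfi1 and Pea15 were lower, the last not with median centring (adjusted p = 0.0723). Spry1, a Sprouty protein often induced with Dusp6 and named here after its value was seen, did not pass with FBS (0.60 ± 0.24, adjusted p = 0.0849) or with RA/Fsk (0.33 ± 0.24, adjusted p = 0.493).

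Of 44 substrates and transcriptional targets of ERK, 24 were measured, and 10 rose and 2 fell with FBS while 4 rose and 1 fell with RA/Fsk. Of all probe sets 13.2% rose and 12.3% fell with FBS, and 4.71% rose and 3.54% fell with RA/Fsk. The list's median was 0.51 log2 with FBS and 0.15 with RA/Fsk, against -0.09 and -0.05 over all probe sets. Plat, tissue plasminogen activator, rose from 25.1 to 501.3 with FBS (4.07 ± 0.24, limma adjusted p = 3.671e-09) and to 240.2 with RA/Fsk (3.03 ± 0.24, adjusted p = 5.744e-07). Ccn1, a matricellular protein, rose with FBS from 26.6 to 525.4 (4.07 ± 0.28, adjusted p = 2.191e-08) and stood at 40.5 with RA/Fsk (0.52 ± 0.28, adjusted p = 0.309). Junb and Klf4 rose with FBS by 2.61 ± 0.32 (adjusted p = 9.715e-06) and 2.32 ± 0.33 (adjusted p = 4.392e-05). The other targets that rose with FBS were Egr2, Fos, Jun, Ier3, Atf3 and Plaur, and Myc and Ccnd1 fell, Ccnd1 in 1 of its 5 probe sets. The Atf3 call was lost without LD culture 1 or FBS culture 2 (adjusted p up to 0.0689) or with FBS culture 3 from array 3r alone (0.0662). With the GAPDH ratio as a covariate the calls of Fos (adjusted p = 0.131), Plaur (0.101) and Ccnd1 (0.1) were lost, and that of Ccnd1 also with array 3r alone (0.051).

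Some immediate early genes rose with both treatments. Egr2, a zinc finger factor, stood at 34.5 in LD, 267.4 in FBS and 385.7 in RA/Fsk (RA/Fsk difference 3.31 ± 0.40, limma adjusted p = 5.414e-05). Fos, the AP-1 subunit, stood at 293.5 in LD, 746.9 in FBS and 823.1 in RA/Fsk (RA/Fsk difference 1.47 ± 0.31, adjusted p = 0.00667). Junb rose in RA/Fsk by 1.31 ± 0.32 (adjusted p = 0.0154, 0.0851 without LD culture 4, and 0.0868 in a fit of these groups alone), in 1 of its 2 probe sets. Egr1, named after its value was seen, did not pass with FBS (0.92 ± 0.47, adjusted p = 0.181) or with RA/Fsk (1.497 ± 0.47, adjusted p = 0.0607), but passed with RA/Fsk once the replicate number was a block (0.0426). Ets1 fell with RA/Fsk, at -1.82 ± 0.37 (adjusted p = 0.0045, and 0.0588 in a fit of these groups alone). With the block Zfp36, an RNA-binding protein that destabilises mRNAs, passed as lower with RA/Fsk (-0.61, adjusted p = 0.0457, and 0.173 without it). Its 2 probe sets went opposite ways, at -0.56 and 0.78 without the block, where 0 passed. Of the 24 genes, 9 were lower in RA/Fsk than in FBS and 1, Ccnd1, was higher in 1 of its 5 probe sets (0.54 ± 0.18, adjusted p = 0.0455, and up to 0.165 without HD 4, LD 4, any FBS culture, or RA/Fsk 2, 3 or 4, and 0.286 with the GAPDH ratio as a covariate). With that covariate the lower calls of Ier3 and Plaur were lost (0.0679 and 0.166), and that of Atf3 with array 3r alone (0.112), without FBS 2 or 3 or without RA/Fsk 1, 2 or 4 (up to 0.114). Of all probe sets 10.1% were lower and 8.27% higher. Jun, the gene closest to Dusp1, differed between RA/Fsk and FBS by -1.62 ± 0.20, and its p is not given because of that likeness. The counts of 10 targets higher with FBS and 9 lower in RA/Fsk than in FBS do include Jun. In HD against LD 0 of 24 passed in limma, at a median of -0.15, and 5 had an unadjusted p under 0.05 (2 higher and 3 lower).

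Because Dusp1 is known to be induced by cAMP and by glucocorticoids, lists of genes induced by each were read beside it. Of 20 measured cAMP-inducible genes, 3 rose and 1 fell with RA/Fsk, where 4.71% and 3.54% of all probe sets did. Scg2, a secretory granule protein, rose from 5.32 to 57.4 (2.60 ± 0.38, limma adjusted p = 0.000306) and Pde4b, a cAMP phosphodiesterase, from 298.3 to 640 (1.09 ± 0.20, adjusted p = 0.00244). Both Scg2 means lay below the antisense 95th percentiles of 216.4 in LD and 160.3 in RA/Fsk. The lowest Scg2 difference over the alternatives was 1.24. Of the 4 Pde4b probe sets, 2 passed (range -0.15 to 1.09). Crem rose by 0.87 ± 0.26 (adjusted p = 0.0477), a call lost without each of 10 cultures (HD 4, LD 3 and 4, all FBS, RA/Fsk 1, 2 and 4; adjusted p up to 0.188) and with the replicate number as a block (0.0876). Vip fell, at -1.60 ± 0.26 (adjusted p = 0.000956). Its mean lay below the median of all values (49.6) in every group, and this difference ran from -2.25 to -0.59 over the alternatives. Nr4a1, a nuclear receptor induced by cAMP in many cells and named after its value was seen, did not pass (0.20 ± 0.30, adjusted p = 0.785). Of the 2 probe sets of Nr4a2, on the same list, 1 passed as higher with RA/Fsk (range 0.08 to 1.33) and 1 with FBS (range 0.23 to 1.35). The probe set that represents Nr4a2 in the counts passed in neither. For Nr4a3 0 of 3 probe sets passed with RA/Fsk. The list's median with RA/Fsk was 0.08.

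With FBS, 3 cAMP-inducible genes rose (Cebpb, Areg and Crem) and Vip fell, where 13.2% and 12.3% of all probe sets did. Cebpb, a C/EBP transcription factor, rose by 2.56 ± 0.48 (limma adjusted p = 0.000618) and Areg, a ligand of the EGF receptor, by 2.23 ± 0.36 (adjusted p = 0.000144). Crem rose by 0.98 ± 0.26 (adjusted p = 0.00915, 0.0561 without LD culture 4, and 0.0984 with the GAPDH ratio as a covariate). Of the 4 Crem probe sets, 2 passed with FBS (range -0.40 to 1.01) and 1 with RA/Fsk (range -0.28 to 0.87). The FBS call of Vip was lost with that covariate (0.0716). In HD against LD only Vip passed, at -1.47 ± 0.28 (adjusted p = 0.0165, and up to 0.0753 without HD 1, HD 2 or LD 3, and 0.123 with the covariate). Over the alternatives the Vip difference ran from -1.72 to -0.49 with FBS and from -2.06 to -0.55 in HD.

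Of 12 measured glucocorticoid-inducible genes, 6 rose and 1 fell with FBS, and 4 rose with RA/Fsk. Of all probe sets 13.2% rose and 12.3% fell with FBS, and 4.71% rose with RA/Fsk. Anxa1, annexin A1, rose from 15.9 to 1130 with FBS (5.76 ± 0.30, limma adjusted p = 8.482e-10) and stood at 15.4 in RA/Fsk (-0.04 ± 0.30, adjusted p = 0.962). Klf9, a Kruppel-like factor, rose by 1.86 ± 0.18 with FBS (adjusted p = 8.737e-07) and by 1.46 ± 0.18 with RA/Fsk (adjusted p = 5.675e-05). Glul, glutamine synthetase, rose by 1.76 ± 0.17 (adjusted p = 9.301e-07) and 1.40 ± 0.17 (adjusted p = 5.464e-05), and Sgk1 and Errfi1 rose with both treatments as well. Cebpd rose with FBS, and Tat fell with FBS at means of 13.96 and 3.48, a call lost without LD culture 3 or 4 (adjusted p up to 0.0909) or with the GAPDH ratio as a covariate (0.203). In RA/Fsk against FBS 4 were lower (Anxa1, Cebpd, Nfkbia and Errfi1) and 0 higher in limma, and at an unadjusted p under 0.05 7 were lower and 0 higher. The Nfkbia call was lost with the GAPDH ratio as a covariate (adjusted p = 0.106). In HD against LD 0 of 12 passed in limma, at a median of -0.31, and 5 had an unadjusted p under 0.05 (1 higher and 4 lower).

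**Figure D4:**
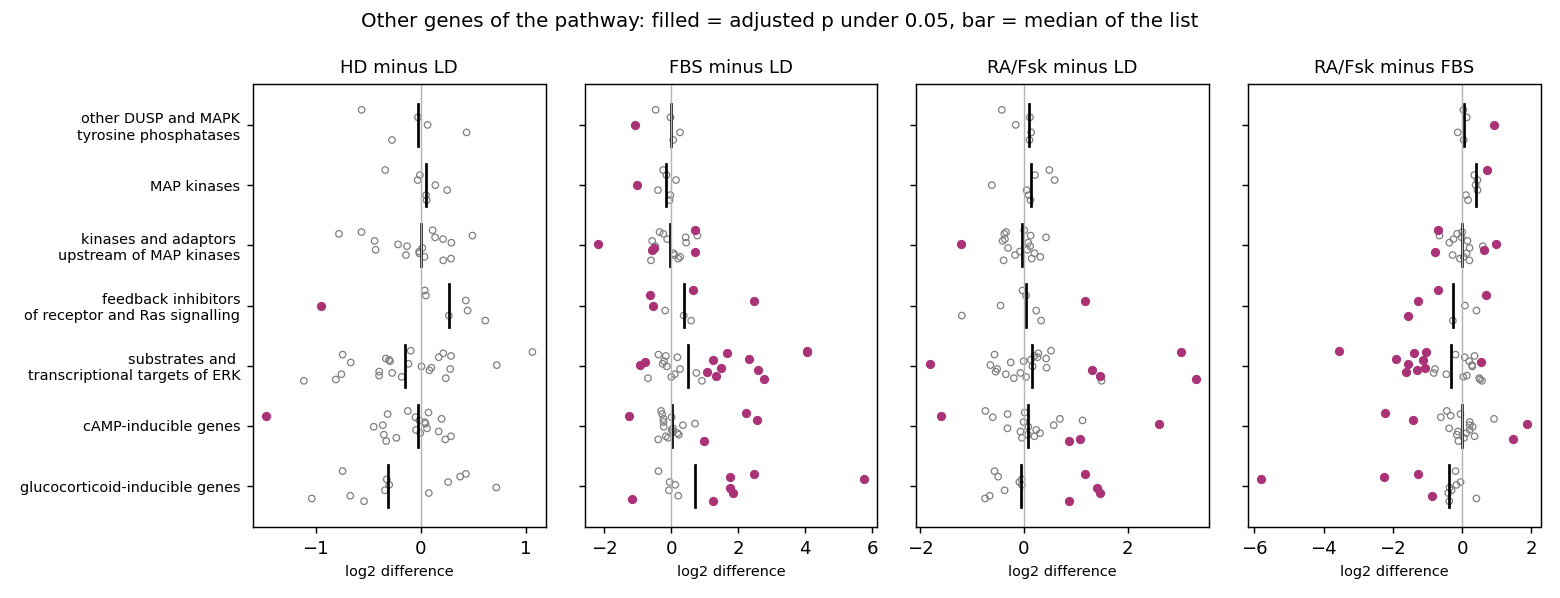
Log2 difference (horizontal axis) of each measured gene of the 7 pathway lists, in 1 panel per comparison; filled points passed at an adjusted p under 0.05 and the bar is the list's median. The ERK target list has its median at 0.51 with FBS, with 10 of 24 genes passing higher, and at -0.32 for RA/Fsk against FBS, with 9 passing lower. Jun, the gene closest to Dusp1, is included in both counts.

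Markers of the labelled cell types were read to describe the cells in which the phosphatases were measured. In a culture, fewer cells of a type and less RNA per cell cannot be told apart. Of 8 measured astrocyte markers, 4 rose with FBS and 3 with RA/Fsk, where 13.2% and 4.71% of all probe sets passed as higher. S100b rose by 2.54 ± 0.18 (limma adjusted p = 2.88e-08) and 2.85 ± 0.18 (adjusted p = 4.035e-08), in 1 of its 2 probe sets. The summed astrocyte list ran from 2030 to 2624 in LD, 3815 to 5008 in HD, 5999 to 8017 in FBS and 8005 to 9357 in RA/Fsk. Without Aldoc, its brightest gene, the sums were 1022 to 1153, 1572 to 1991, 3522 to 5109 and 3812 to 4414. In RA/Fsk against FBS Aldoc was higher (0.76 ± 0.15, adjusted p = 0.00146) and Slc1a3 lower (-1.765 ± 0.28, adjusted p = 0.000268). In HD against LD 1 of the 8, Aldoc, was higher (0.94 ± 0.17, adjusted p = 0.0126, and up to 0.0897 without HD 4 or LD 1), and 4 had an unadjusted p under 0.05. Of 9 measured neuron markers, 0 rose with RA/Fsk in limma, also at an unadjusted p under 0.05, and Gap43, a growth cone protein, fell, at -0.88 ± 0.21 (adjusted p = 0.0121). With FBS, in the cultures labelled as astrocytes, Nefm, a neurofilament subunit, rose from 15.3 to 92.1 (2.25 ± 0.58, adjusted p = 0.00765). Both Nefm means lay below the antisense 95th percentile of their group, and its lowest difference over the alternatives was 1.36. Elavl4, a neuronal RNA-binding protein, fell with FBS (-0.49 ± 0.17, adjusted p = 0.0468), a call lost without any of 11 cultures (all HD and LD cultures, FBS 2, 3 and 4, RA/Fsk 2 and 4; up to 0.13). The summed neuron list was 1342 to 1661 in RA/Fsk, 1421 to 1695 in FBS, 1595 to 1699 in LD and 1574 to 2396 in HD. Gfap, Tubb3, Rbfox3 and Dcx had no probe set with a single symbol. The RA/Fsk cultures, which the labels name as neurons, had no measured neuron marker that passed as higher than in LD. Since only 4.71% of all probe sets passed as higher there, nothing is read about the label from 0 of 9.

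Of 11 measured fibroblast and meningeal markers, 1 rose with FBS, S100a4 (4.40 ± 0.23, limma adjusted p = 9.829e-10). Of the 3 Acta2 probe sets, 1 also passed as higher with FBS (range 0.15 to 1.75), but not the one that represents the gene. For this and the next lists, 13.2% of all probe sets rose and 12.3% fell with FBS, and 4.71% rose and 3.54% fell with RA/Fsk. Thy1 fell (-1.05 ± 0.33, adjusted p = 0.0266), a call lost without LD 1 or 3 or FBS 1, 2 or 3 (up to 0.135). With only the first array of each culture it was also lost (0.302). S100a4 rose with RA/Fsk too (1.16 ± 0.23, adjusted p = 0.00441, and 0.0663 in a fit of these groups alone). The summed fibroblast list was 1441 to 1876 in FBS against 380.8 to 500.6 in LD. Without S100a4 the sums were 345.2 to 485.3 and 323.2 to 427.7. Of 9 microglia and 4 endothelial markers, 0 passed in any comparison in limma, and each list had 1 at an unadjusted p under 0.05, for RA/Fsk against LD and against FBS in turn. Of 8 oligodendrocyte lineage markers, 2 rose with RA/Fsk, Mbp (2.45 log2) and Cnp (0.78 log2), and the summed list was 2766 to 4774 against 2120 to 2869 in LD. With FBS Pdgfra, a growth factor receptor of oligodendrocyte precursors, fell from 766.8 to 130.6 (-2.51 ± 0.28, limma adjusted p = 3.563e-06) and Mbp rose by 1.46 ± 0.49 (adjusted p = 0.0373), the latter not without any LD culture or FBS 1, 2 or 4 (up to 0.124), nor with the GAPDH ratio as a covariate (0.244). Of 7 progenitor markers, 3 fell with FBS (Fabp7, Notch1 and Hes5) and 0 passed with RA/Fsk in limma, 2 at an unadjusted p under 0.05. The Notch1 call was lost without LD 1 or 3 or FBS 2, 3 or 4 (adjusted p up to 0.21), and that of Hes5 without HD 1, any LD, FBS 1, 2 or 3, or RA/Fsk 2 or 4 (up to 0.137). Both were also lost with the GAPDH ratio as a covariate (0.379 and 0.108). No marker was at 0 on all arrays. The log2 ratio of the 5′ to the 3′ GAPDH control probe sets, a sign of RNA integrity, was -0.47 to -0.21 in LD, -0.16 to -0.01 in FBS, -0.47 to -0.11 in RA/Fsk and -0.20 to 0.05 in HD. The part of these markers and of this ratio in the Dusp1, Dusp5 and Dusp6 values was not tested beyond a fit with the ratio as a covariate, in which no Dusp1 or Dusp6 difference changed sign.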

How the data were processed

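The authors deposited a table of linear intensities for 8799 probe sets on 20 arrays. How background was corrected, probes summarised and arrays scaled is not given in the sources used. Array trimmed means of 200.3 to 200.5 show values on a common scale. A constant of 4.99, which is 10% of the median positive value (49.9), was added before taking log2, since the deposited intensities include 6 zeros. Arrays of a group with the same number in their titles were averaged to give 14 cultures. The 59 control probe sets were left out of the tests, and 8740 were fitted over all 4 groups in R 4.3.3 using lmFit and trended eBayes of limma 3.58.1 (10 residual degrees of freedom), with Benjamini-Hochberg adjustment. The fit was tested on simulated data. Numbers in the titles were checked as pairs: deviations from the group means correlated at 0.108 to 0.327 in all 3 same-numbered pairs of LD and RA/Fsk, which are taken as paired from the data alone, since no label explains the numbers. The number of arrays limits the precision.

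Gene names come from the platform annotation: 7006 probe sets have a single symbol, 308 several and 1426 none. The members, the lists and the naming rule were chosen with earlier results of these data known. A list gene is represented by its probe set of highest mean. The rule names all member probe sets, every measured relative of the family, up to 4 genes per list and comparison with the smallest adjusted p among those that passed, and the 5 probe sets of highest Pearson r to each member. Other genes were named after their values were seen. Alternatives covered the pseudocount, a filter on dim probe sets, scaling, the variance model, the handling of arrays, the replicate number, the GAPDH ratio and each culture left out, 26 in all. Probe sets are numbered here, since their identifiers contain accessions.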

Additional observations from a re-analysis of the deposited data

How the results depend on the processing

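Of the 24 member differences, 21 kept their direction in all 26 alternatives. The others were small: Dusp6 probe set 1 for FBS against LD (-0.08 to 0.35), Dusp5 for HD against LD (-0.26 to 0.07) and Dusp5 for RA/Fsk against FBS, which was 0.010 after quantile normalization. With a constant of 32, probe set 3 was at 2.11 for FBS against LD and -0.86 for RA/Fsk against LD. For RA/Fsk minus FBS, Dusp1 was then at -2.99, -1.53 and -2.97 in probe sets 1, 2 and 3. With a constant of 1, RA/Fsk against FBS gave -4.22 in probe set 1 and -4.96 in probe set 3. Leaving out single cultures gave -1.68 (adjusted p = 0.0207) to -0.51 for Dusp1 probe set 1 in HD against LD. The count of HD against LD calls was 252 with each array as its own sample and the culture as a random block, 48 with FBS culture 3 taken from array 3r alone, and 23 to 110 with single cultures left out. The count for RA/Fsk against LD was 362, not 721, with only those groups in the fit. Of 106 calls of list genes, 63 passed in every alternative that tested them. Where a cause is not given by the alternative's own construction, the cause was not tested.

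The block on the replicate number was fitted over all 4 groups. All 3 same-numbered pairs of LD and RA/Fsk correlated over 0.1. In the other comparisons not every same-numbered pair correlated over 0.1 (lowest -0.0853). Cultures correlated best with their own number in 6 of 6 cases for LD and RA/Fsk. For HD and LD it was 4 of 4, with pairs at 0.143 and 0.09. It was 3 of 8 for FBS and RA/Fsk and 3 of 6 for LD and FBS. For RA/Fsk against LD the block changed the calls of Crem, Egr1, Nf1 and Zfp36 and of no other list gene. With the replicate number as a block, HD differed from LD in 74 probe sets, in place of 75. LD differed from FBS in 2278 in place of 2225 and from RA/Fsk in 756 in place of 721, and the treatments differed from each other in 1693 in place of 1606. The block made no member call in HD against LD (Dusp1 probe set 1 at -1.08, limma adjusted p = 0.262). Dusp6 probe set 2 came closest, at 0.73 with an adjusted p of 0.0953, against 0.261 without the block.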
